A study of Homo sapiens with 38 samples.

Results

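Untreated cells of 2 human neuroblastoma cell lines, NB1643 and NB1691, were compared by RNA-seq. The comparison rests on 4 of the 38 libraries of the series, chosen by their labels alone: 2 NB1643 control libraries against 2 NB1691 control libraries, whose labels give no treatment. The same experiment held palbociclib libraries of both lines (3 μM for 72 h, 2 libraries per line). It also held control and palbociclib libraries of the CHLA15 and CHLA20 neuroblastoma lines, where the palbociclib dose was 0.3 μM for 72 h. Palbociclib is an inhibitor of the cell cycle kinases CDK4 and CDK6, and the study set its effect on RNA beside that of inhibiting the histone demethylase KDM6B. Per the labels, both lines had been grown in DMEM with L-glutamine and FBS, whereas the study's methods give RPMI for its NB-1691 cells and no medium for NB1643. The control labels name no further allele, vector or agent. Each line stands for 1 tumour, so a difference between them is a difference between 2 lines and not between classes of tumour. The labels describe a cell line as the source while their extraction text names xenograft tissue, and the study's methods name cells. Nothing in the labels ties the replicates to separate cultures, so the p-values measure only the spread between these libraries, which may be technical.

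Neuroblastoma arises from the sympathetic branch of the neural crest. Its cells usually keep a circuit of adrenergic transcription factors, among them HAND2 and GATA3, and can instead take on a mesenchymal state with extracellular matrix, YAP and AP-1 genes. Amplification of MYCN marks a group of high-risk tumours, and the amplified segment often carries neighbours such as DDX1 and NBAS. A stretch of the long arm of chromosome 12 that holds CDK4, a kinase that phosphorylates the retinoblastoma protein, and MDM2, a ubiquitin ligase gene, is amplified in some tumours. The files measure RNA, not DNA copy number.

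The 4 control libraries held 48484706 to 93011010 counts on genes. The CPM unit is a gene's count relative to the library total, after TMM scaling, which adjusts totals for differences in RNA composition. A count of 3, taken as the floor, came to at most 0.0575 CPM in an NB1643 library and 0.048 CPM in an NB1691 library. Correlations of log2 CPM across genes were taken over 16 libraries, control and palbociclib libraries together. Libraries of the same line and condition correlated at 0.992 to 0.9962, and NB1643 with NB1691 at 0.7581 to 0.7757 (0.7677 to 0.7757 between controls alone). NB1643 correlated with the CHLA lines at 0.9159 to 0.9291 and NB1691 with the CHLA lines at 0.7889 to 0.8103. The 10 most abundant genes took 12.29% to 12.38% of NB1691 counts and 5.445% to 5.604% of NB1643 counts. FN1, which encodes fibronectin, took 5.025% to 5.088% of NB1691 counts alone. The identity of the libraries labelled NB1691 rests on that label, which was kept as given: as described below, they held low MYCN RNA beside high DDX1, NBAS, CDK4 and MDM2 RNA and high RNA of mesenchymal genes. No genotype was at hand to check it, so each difference below is between libraries that carry these labels.

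Markers of a sympathetic neuroblast were detected in both lines. Of the 12 listed, 9 were at least 2-fold higher in NB1643 and 0 at least 2-fold higher in NB1691. Their summed level was 5668 and 5892 CPM in the NB1643 libraries against 783.6 and 875.4 CPM in the NB1691 libraries. The fibroblast markers (4 genes, led by COL1A1) summed to 66.3 and 67.27 CPM in NB1643 and to 16720 and 16420 CPM in NB1691. Most of the latter sum came from COL1A1, followed by LUM (1763 and 1743 CPM) and PDGFRB (116.8 and 116.2 CPM). DCN, the remaining member, reached only 2.128 and 2.446 CPM in NB1691, below the 75.1 to 111 CPM of the CHLA controls. COL1A1, LUM and PDGFRB were higher in NB1691 than in those controls. Epithelial markers (4 genes, led by KRT18) summed to 1.119 and 0.7097 CPM against 348.8 and 350 CPM. Nearly all of the NB1691 sum came from the keratin genes KRT18 (297.2 and 298.6 CPM) and KRT8 (50.15 and 50.2 CPM). KRT19 reached only 0.848 and 0.6876 CPM there, and EPCAM, the remaining member, was not called. Endothelial markers stayed at 0.08187 and 0.07672 CPM against 11.2 and 11.35 CPM, and CDH5, which defines that cell type, reached only 0.16 and 0.1851 CPM in NB1691. SOX10, which defines Schwann cells, was at 0 in all 4 libraries. Of the blood markers, PTPRC was at 0.544 and 0.3835 CPM in NB1691. LYZ, a blood marker at 20.08 and 20.58 CPM in NB1691, lies in the chromosome 12 stretch described further on. HBB, a haemoglobin gene, was at 13.37 CPM in the NB1643 library of replicate 1 and at 0 in the other 3, so its call rests on that library. In bulk RNA, fewer cells of a type and less RNA per cell cannot be told apart, and the part of other cell types in the differences given here was not tested.

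Of 22133 genes tested with edgeR's quasi-likelihood test, 17868 (80.7%) differed between the lines at a Benjamini-Hochberg adjusted p under 0.05, of which 7994 (36.1%) were higher in NB1643 and 9874 (44.6%) higher in NB1691. At that threshold and at least 2-fold, 4712 (21.3%) were higher in NB1643 and 6753 (30.5%) higher in NB1691, which is the call used for every list below and the background against which its counts are read. The share of these calls that was higher in NB1643 was 41.1% with TMM scaling, 46.9% with upper-quartile scaling and 54.3% with library totals alone. Upper-quartile scaling and library totals moved the median log2 fold change (NB1643 minus NB1691) of all genes from −0.128 to 0.053 and 0.28. Against the CHLA15 and CHLA20 controls, which both contrasts share, 6634 genes (30%) were called at 2-fold for NB1643 and 10661 (48.2%) for NB1691. Genes at or under the floor in NB1643 numbered 2536, of which 301 reached at least 10 CPM in both NB1691 libraries. The reverse, at or under the floor in NB1691 and at least 10 CPM in both NB1643 libraries, held for 21 of 916 genes. For such genes a fold is given as a bound against the floor. A gene at the floor in a line can pass the filter on low counts through other libraries alone, so that its call may follow from the filter, and the list counts below include such genes.

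**Figure D1:**
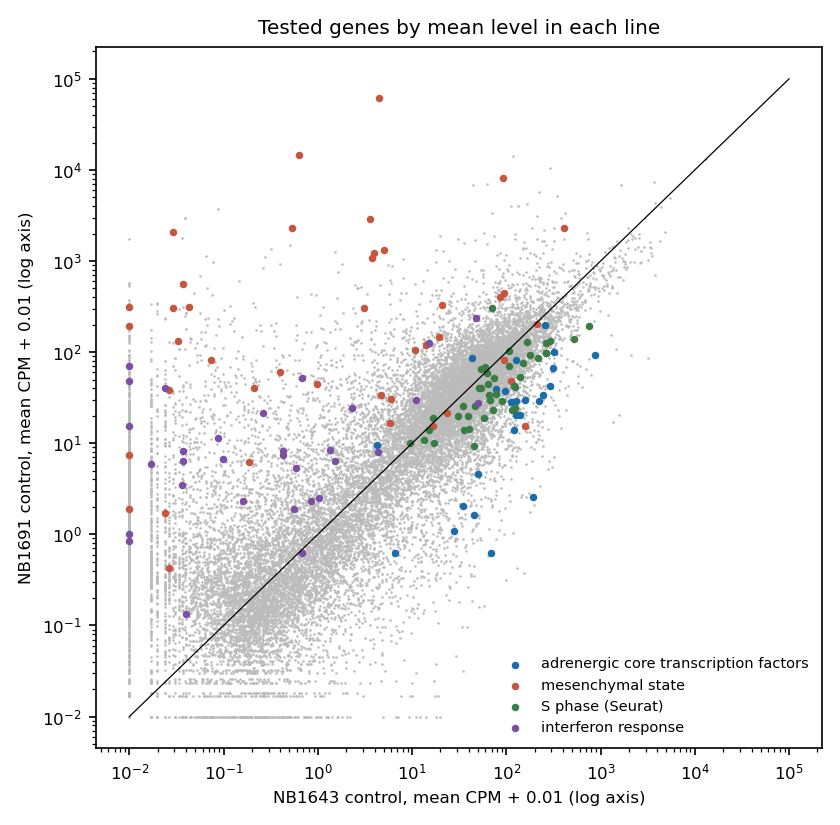
Mean CPM plus 0.01 of each tested gene in the 2 NB1643 control libraries (x axis, log) and the 2 NB1691 control libraries (y axis, log), with 4 gene lists coloured and the line of equal levels. Grey points are the other tested genes, and the column of points at the left edge holds genes with no count in NB1643. Most mesenchymal and interferon genes lie above the line and most adrenergic factors and S phase genes below it.

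MYCN, the driver of the MYCN-amplified class, stood at 3093 and 3257 CPM in the NB1643 libraries and at 86.1 and 86.5 CPM in the NB1691 libraries (chromosome 2, 16080672 to 16087129, GRCh37, plus strand). The groups did not overlap, and NB1643 was 36.8-fold higher (log2 fold change 5.20, SE 0.062, adjusted p = 5.75e-22). The CHLA control libraries held 2.28 to 3.39 CPM, below both. Its antisense transcript MYCNOS, which overlaps MYCN on the opposite strand, was at 32.66 and 36.27 CPM against 0.896 and 0.8595 CPM. Whether the counting used strand is not given in the sources used here, so reads of that pair may not be separable.

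Genes on both sides of MYCN differed in the other direction. DDX1, an RNA helicase gene commonly co-amplified with MYCN, was at 285.4 and 294 CPM in NB1643 and at 10400 and 10720 CPM in NB1691 (chromosome 2, 15731302 to 15774470). NB1691 was 36.4-fold higher (log2 fold change −5.19, SE 0.054, adjusted p = 1.37e-22), and NB1643 lay close to the 204 to 238 CPM of the CHLA controls. NBAS, which encodes a protein of retrograde vesicle transport, was at 85.74 and 73.65 CPM against 1149 and 1181 CPM (log2 fold change −3.87). FAM84A, the next tested gene on that side, was at 21.35 and 21.37 CPM against 334.2 and 340.9 CPM. On the far side of MYCN, FAM49A was at 6.931 and 6.464 CPM against 48.03 and 52.21 CPM (log2 fold change −2.90), and the long noncoding RNA GACAT3 at 0.5458 and 0.3836 CPM against 3.632 and 3.795 CPM (log2 fold change −2.96). Both libraries of NB1691 therefore carried high RNA of NBAS and DDX1 beside low MYCN RNA, and both libraries of NB1643 the reverse. Beyond these genes TRIB2 (250.2 and 236.7 against 29.54 and 30.27 CPM) and GREB1 (104 and 88.08 against 5.712 and 5.818 CPM) were again higher in NB1643. Of the 15 tested genes of the MYCN region list, 8 were higher in NB1643 and 4 in NB1691. Copy number of MYCN could not be checked, since these files hold RNA counts alone. The study describes its 4 palbociclib-treated lines as 2 with MYCN amplification and 2 without, and its main text does not name which. The lower MYCN RNA of NB1691 is therefore no statement that this line lacks the amplification.

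Other members of the MYC family were lower in NB1643. MYC was at 0.6003 and 0.0959 CPM in NB1643 and at 72.85 and 66.22 CPM in NB1691 (log2 fold change −7.48, SE 0.18, adjusted p = 8.94e-18). The CHLA controls reached 662 to 719 CPM, so the NB1691 level lay between NB1643 and the CHLA lines. MYCL was at 0.4912 and 0.3452 CPM against 4.752 and 5.356 CPM. MXI1, an antagonist of MYC, was the member higher in NB1643 (86.19 and 87.81 against 23.2 and 21.94 CPM), and 1 of the 11 tested members was higher in NB1643 and 2 in NB1691. ODC1, the first enzyme of polyamine synthesis and a known MYC target, was at 313.2 and 313.8 CPM in NB1643 and 107.8 and 112.2 CPM in NB1691 (log2 fold change 1.51).

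**Figure D2:**
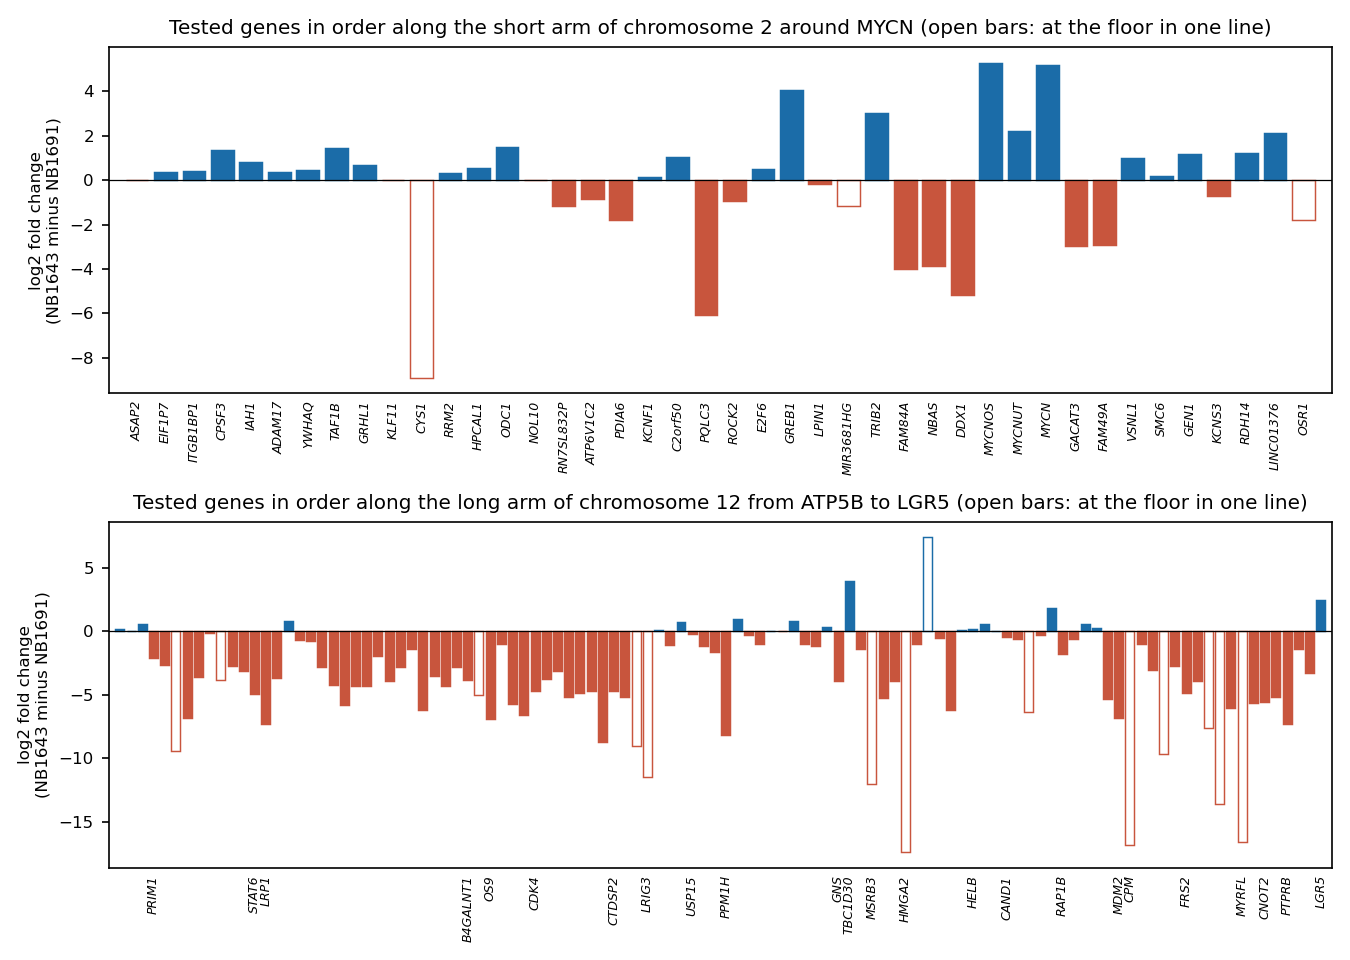
Fitted log2 fold change (NB1643 minus NB1691) of each tested gene in its order along chromosome 2 around MYCN (top, 42 genes) and along chromosome 12 from ATP5B to LGR5 (bottom, 108 genes). Blue bars are higher in NB1643, red bars higher in NB1691, and open bars mark genes at the floor in a line, whose fitted value is no bound. MYCN stands at 5.20 beside DDX1 at −5.19, and a chromosome 12 block around CDK4 and another around MDM2 lie below zero, and 22 of the 40 genes between them were not called at 2-fold.

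On chromosome 12, CDK4 and MDM2 were among the most abundant RNAs of NB1691. CDK4 was at 220.8 and 227.2 CPM in NB1643 and at 5676 and 5817 CPM in NB1691, 25.7-fold higher (log2 fold change −4.68, SE 0.068, adjusted p = 6.840e-21, chromosome 12, 58141510 to 58149796). MDM2 was at 61.59 and 63.89 CPM against 6903 and 7026 CPM, 111-fold higher in NB1691 (log2 fold change −6.79, SE 0.080, adjusted p = 4.37e-22, chromosome 12, 69201957 to 69239324). NB1643 sat near the CHLA controls for both genes, which ranged from 248 to 286 CPM for CDK4 and from 63.3 to 78.6 CPM for MDM2. OS9, named after its values were seen, was higher still at about 14200 CPM in NB1691 against 118 CPM in NB1643 (means of 2). TSPAN31 and CPM, which overlap CDK4 and MDM2 on the map, were also higher, and CPM was at least 51300-fold higher because NB1643 was at the floor.

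The difference was not even along the arm. Of 108 tested genes placed between ATP5B and LGR5, 74 were higher in NB1691 and 4 in NB1643. Before SLC16A7, 41 of 48 genes were higher in NB1691, with a median log2 fold change of −3.87, or −3.82 with floor genes at their bound. From SLC35E3 on, 18 of 20 were higher, with a median of −5.46 (−5.27 at the bound). Of the 40 genes between them, 15 were higher in NB1691, 3 in NB1643 and 22 neither, with a median of −0.47. These limits were drawn after the values were seen. In that middle part HMGA2, an oncofetal chromatin protein that let-7 represses, was at 0 in both NB1643 libraries and at 348.8 and 343.9 CPM in NB1691, at least 6020-fold higher. USP15 (log2 fold change −0.19) and HELB (0.18, adjusted p = 0.182) in the same part differed by less than 2-fold. B4GALNT1, the enzyme that makes the GM2 and GD2 gangliosides, lies beside CDK4 and was at 90.35 and 81.19 CPM against 1223 and 1256 CPM (log2 fold change −3.85). Of the 65 tested genes of the chromosome 12 list, 48 were higher in NB1691 and 2 in NB1643.

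**Figure D3:**
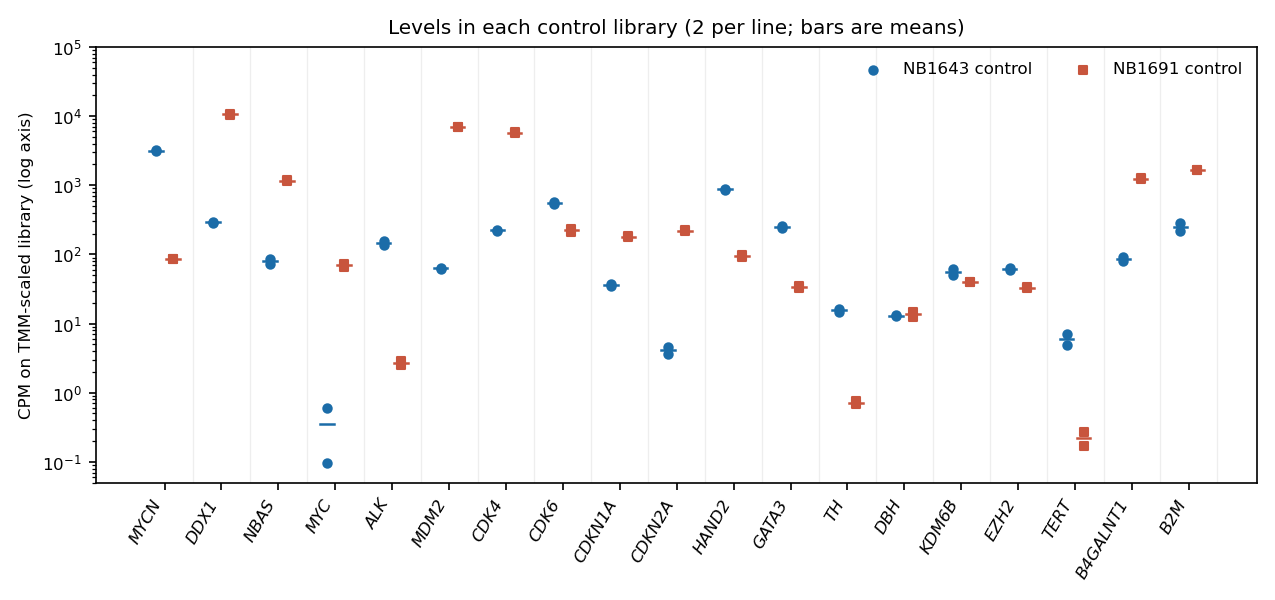
CPM of the named genes in each of the 4 control libraries (log y axis, 2 points per line and gene, NB1643 blue and NB1691 red, bars are means of 2). For MYCN the NB1643 points lie above, for DDX1, MDM2 and CDK4 the NB1691 points, and for DBH the lines overlap.

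In the cyclin D, CDK4/6, RB and E2F list, 3 of 21 tested members were higher in NB1643 and 4 in NB1691, which left 12 called at under 2-fold and 2 not called. CDK6, the partner kinase of CDK4, was at 579.8 and 541.8 CPM in NB1643 and 212.7 and 233 CPM in NB1691 (log2 fold change 1.33), the opposite direction to CDK4. CCND1, which encodes cyclin D1, was at 979.2 and 888.1 CPM against 506.3 and 515.9 CPM (log2 fold change 0.87, adjusted p = 5.40e-12). RB1 was at 68.55 and 79.12 CPM against 63.67 and 66.79 CPM (log2 fold change 0.18, adjusted p = 0.0113), and the call was lost in the fit of only 4 libraries and without the NB1691 library of replicate 1 (adjusted p = 0.0715 and 0.128). E2F1 (122.5 and 110.2 against 46.18 and 46.72 CPM) and E2F5 (20.92 and 23.88 against 2.064 and 2.327 CPM) were higher in NB1643. E2F7 and CCND3 were higher in NB1691, with log2 fold changes of −1.23 and −1.39.

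Of the 8 tested cyclin-dependent kinase inhibitors, 3 were higher in NB1691 and 1 in NB1643. CDKN2A, which encodes p16 and p14ARF, was at 4.503 and 3.663 CPM in NB1643 and at 214.6 and 227 CPM in NB1691, 54.1-fold higher (log2 fold change −5.74, SE 0.093, adjusted p = 2.69e-20). CDKN2B, the neighbouring p15 gene, was at 0.08187 and 0.0959 CPM against 114 and 110.2 CPM (log2 fold change −10.29). CDKN1A, the p21 inhibitor, was at 37.92 and 34.87 CPM against 175.9 and 183.1 CPM (log2 fold change −2.30). CDKN1C, the p57 inhibitor, was the member higher in NB1643, at 10.42 and 9.245 CPM against 4.624 and 4.284 CPM. Proliferation lists had most of their 2-fold calls in NB1643. The S phase list had 20 of 43 tested members higher in NB1643 and 1 in NB1691, and the G2/M list 13 of 52 and 1 (medians 0.96 and 0.54). For G2/M the share higher in NB1643 lay near the 21.3% of all tested genes, while that higher in NB1691 lay far below 30.5%. MCM7, a subunit of the replicative helicase, was at 766.6 and 738.1 CPM against 194.5 and 196.9 CPM (log2 fold change 1.94). The S phase member higher in NB1691, PRIM1, lies in the chromosome 12 stretch. TOP2A, a G2/M gene, did not pass the test (log2 fold change 0.03, adjusted p = 0.669).

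Adrenergic core transcription factors were higher in NB1643. Of 25 tested, 20 were higher there and 1, TBX20, in NB1691, with a median log2 fold change of 2.76. HAND2, a factor of sympathetic neuron development, was at 894.9 and 857.2 CPM in NB1643 and at 90.53 and 97.52 CPM in NB1691, without overlap (log2 fold change 3.22). GATA3 was at 241.2 and 254 CPM against 32.5 and 35.11 CPM (log2 fold change 2.87). For HAND2 the NB1691 libraries were lower and the NB1643 libraries higher than the CHLA controls, which held 400 to 438 CPM. For GATA3 the libraries of both lines were lower than the CHLA controls, which held 280 to 369 CPM. TFAP2B, a factor of sympathetic differentiation, was at 195.5 and 192.2 CPM against 2.496 and 2.658 CPM (log2 fold change 6.23), and INSM2 at 72.74 and 64.16 CPM against 0.512 and 0.7273 CPM (log2 fold change 6.76).

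**Figure D4:**
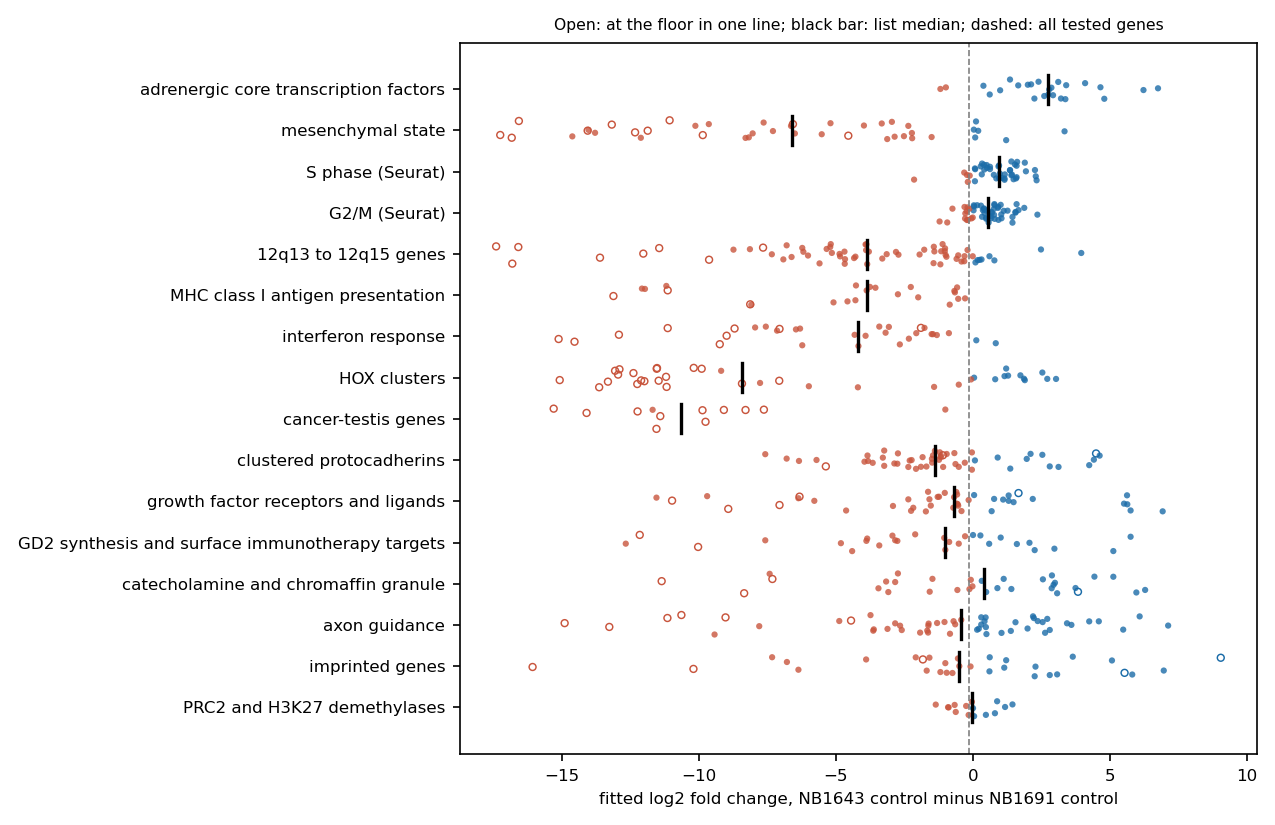
Fitted log2 fold change (NB1643 minus NB1691) of each tested member of the gene lists shown, 1 point per gene, blue higher in NB1643 and red higher in NB1691. Open points are genes at the floor in a line, black bars are list medians and the dashed line is the median of all tested genes at −0.128. The adrenergic list lies to the right, the mesenchymal, HOX, MHC class I and interferon lists far to the left, and the PRC2 list around zero. The cancer-testis points also lie to the left, but most of these genes passed the filter through the NB1691 libraries alone. Their side therefore follows from the filter.

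The mesenchymal list lay on the other side. Of 42 tested members, 36 were higher in NB1691 and 2, TWIST1 and ZEB1, in NB1643, with a median log2 fold change of −6.59, or −6.00 with floor genes at their bound. COL1A1, a fibrillar collagen chain, was at 0.3548 and 0.9015 CPM in NB1643 and at 14840 and 14560 CPM in NB1691 (log2 fold change −14.61, SE 0.16, adjusted p = 2.65e-22). FN1 was at 4.134 and 4.680 CPM against 61800 CPM in each NB1691 library. COL1A2, which pairs with COL1A1 in type I collagen, was low in both lines, at 0.02729 and 0 CPM against 1.760 and 1.627 CPM. AXL, a receptor kinase of the mesenchymal state, was at 0.05458 and 0 CPM against 562.5 and 565.8 CPM. FN1 and COL1A2 were named after their values were seen.

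YAP1, the transcriptional co-activator of the Hippo pathway, was at 0 in both NB1643 libraries and at 191.7 and 196.5 CPM in NB1691, at least 3370-fold higher. Its DNA-binding partners TEAD1 and TEAD4 did not differ by 2-fold (mean 210 and 204 CPM, and 23.5 and 21.7 CPM, in NB1643 and NB1691). CTGF, a secreted matricellular protein and standard YAP target, was at 0 and 0.03836 CPM against 2120 and 2038 CPM, at least 36100-fold higher. ANKRD1, another such target, was at 0.02729 and 0.01918 CPM against 129.4 and 135.1 CPM. CAV1, of caveolae, was at 0 in NB1643 and at 311.7 and 310.9 CPM in NB1691, at least 5410-fold higher. TWIST1, which is higher in NB1643 despite its place in the list, was at 159.7 and 155.9 CPM against 15.49 and 15.51 CPM (log2 fold change 3.35).

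The 250 bases before the RefSeq start sites of CTGF (current symbol CCN2) and ANKRD1 are shown because these genes were at the floor in NB1643 and YAP acts through TEAD, whose DNA element is read as GGAATG (both strands, in capitals). The sequences are from RefSeq on GRCh38.p14, gene strand 5′ to 3′, at chr6:131951373-131951622 (minus strand) and chr10:90921088-90921337 (minus strand).
CTGF: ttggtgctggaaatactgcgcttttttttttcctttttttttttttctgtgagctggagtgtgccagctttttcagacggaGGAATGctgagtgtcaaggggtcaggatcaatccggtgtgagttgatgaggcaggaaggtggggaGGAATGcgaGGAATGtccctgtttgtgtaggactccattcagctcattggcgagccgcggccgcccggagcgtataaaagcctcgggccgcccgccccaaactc
ANKRD1: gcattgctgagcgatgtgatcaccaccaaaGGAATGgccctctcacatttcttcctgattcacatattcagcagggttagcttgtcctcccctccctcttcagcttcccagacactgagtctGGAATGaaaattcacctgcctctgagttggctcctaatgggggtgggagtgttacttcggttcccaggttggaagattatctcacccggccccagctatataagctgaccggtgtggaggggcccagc
CTGF holds 3 matches and ANKRD1 2. Of all 35116 upstream windows of 250 bases, 11.9% hold at least 1 match, 0.940% at least 2 and 0.0826% at least 3. A match describes the letters and no binding was measured.

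Genes of catecholamine synthesis and granules split between the lines, with 14 of 32 tested members higher in NB1643 and 11 in NB1691. TH, the rate-limiting enzyme of catecholamine synthesis, was at 16.48 and 14.52 CPM in NB1643 and at 0.752 and 0.6876 CPM in NB1691 (log2 fold change 4.44, SE 0.15, adjusted p = 1.91e-15). Both were far below the 171 to 210 CPM of the CHLA controls. DBH, which turns dopamine to noradrenaline, was at 12.99 and 13.08 CPM against 12.61 and 14.74 CPM and did not pass the test (log2 fold change −0.07, SE 0.10, adjusted p = 0.513). Its value was 0.12 with upper-quartile scaling and 0.34 with library totals (adjusted p = 0.277 and 0.00375), scalings that moved the median of all genes in the same direction. SLC6A2, the noradrenaline transporter that takes up the imaging tracer MIBG, was at 54.95 and 48.22 CPM against 1.696 and 1.283 CPM. Granule genes CHGB (1280 and 1331 against 140 and 169.6 CPM) and VGF (91.12 and 77.95 against 1.264 and 0.9256 CPM) were higher in NB1643. The neuropeptide genes TAC1 and ADCYAP1 were higher in NB1691, at 5.232 and 5.289 CPM for TAC1 against 0 in NB1643.

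Of 43 tested growth factor receptors and ligands, 11 were higher in NB1643 and 20 in NB1691. ALK, a receptor kinase mutated or amplified in some neuroblastomas, was at 155.7 and 138.4 CPM in NB1643 and at 2.544 and 2.856 CPM in NB1691, 54.5-fold higher (log2 fold change 5.76, SE 0.11, adjusted p = 2.15e-19). NTRK2, which encodes TrkB, the receptor for BDNF, was at 43.99 and 41.12 CPM against 0.24 and 0.4364 CPM (log2 fold change 6.93). PDGFRA, a receptor for platelet-derived growth factor, was at 97.02 and 95.88 CPM against 2.080 and 1.825 CPM. MET, the receptor for hepatocyte growth factor, went the other way, at 0.1228 and 0.05754 CPM against 290.6 and 291.5 CPM (log2 fold change −11.54). GDNF, a ligand of the RET complex, was at 0.04093 and 0.0959 CPM against 54.9 and 53.82 CPM, and its co-receptor GFRA1 at 18.6 and 17.32 CPM against 951.1 and 1021 CPM. IGF2, an imprinted growth factor gene, was at 8.227 and 7.826 CPM against 628.1 and 690.3 CPM. Of 27 tested MAPK output genes, 7 were higher in NB1643 and 12 in NB1691. Of the second kind, the cytokine gene LIF was at 2.565 and 2.609 CPM against 190.6 and 192.4 CPM.

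Genes of antigen presentation were lower in NB1643. Of 23 tested genes of the MHC class I pathway, 17 were higher in NB1691 and 0 in NB1643 (median log2 fold change −3.87). HLA-B was at 0.4639 and 0.3069 CPM in NB1643 and at 919 and 937.9 CPM in NB1691 (log2 fold change −11.18, SE 0.11, adjusted p = 1.09e-22), and HLA-C at 0.2047 and 0.3261 CPM against 1107 and 1111 CPM. These genes share sequence with each other, so counts of single members depend on how reads were placed. B2M, the shared light chain, was at 219.7 and 280 CPM against 1678 and 1645 CPM, 6.65-fold higher in NB1691 (log2 fold change −2.73, SE 0.10). TAP1, a peptide transporter subunit, was at 0.1092 and 0.07672 CPM against 26.35 and 26.43 CPM. In the CHLA controls HLA-B was also low, at 0.251 to 0.402 CPM, and B2M at 142 to 202 CPM.

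Of 31 tested interferon response genes, 28 were higher in NB1691 and 0 in NB1643 (median −4.17, or −3.91 with floor genes at their bound). GBP1, a guanylate-binding protein, was at 0 in NB1643 and at 71.52 and 70.93 CPM in NB1691, at least 1240-fold higher. MX2, an antiviral GTPase, was at 0 against 45.54 and 49.92 CPM, at least 829-fold higher. The same line held the checkpoint ligand CD274 (PD-L1) at 427.7 and 421.4 CPM, against 0.05458 and 0.07672 CPM in NB1643.

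The upstream windows of B2M and GBP1, both higher in NB1691, are shown with the interferon-type repeat (GAAA, then 2 bases of any kind, then GAAA, on both strands, overlapping matches joined) in capitals. They are from RefSeq on GRCh38.p14, at chr15:44711267-44711516 (plus strand) and chr1:89065209-89065458 (minus strand), gene strand 5′ to 3′.
B2M: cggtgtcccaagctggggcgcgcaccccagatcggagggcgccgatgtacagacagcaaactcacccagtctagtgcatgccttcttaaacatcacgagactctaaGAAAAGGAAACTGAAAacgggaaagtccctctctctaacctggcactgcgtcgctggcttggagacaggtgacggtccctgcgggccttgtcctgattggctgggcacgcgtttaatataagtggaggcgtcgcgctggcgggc
GBP1: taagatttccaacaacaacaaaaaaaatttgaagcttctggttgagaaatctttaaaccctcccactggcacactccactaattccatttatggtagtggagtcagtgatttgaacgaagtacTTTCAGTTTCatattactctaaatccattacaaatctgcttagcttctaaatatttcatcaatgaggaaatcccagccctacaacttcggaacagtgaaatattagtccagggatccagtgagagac
B2M holds 2 overlapping matches and GBP1 1, and 3.02% of the 35116 windows hold at least 1 and 0.225% at least 2. These matches describe the letters, neither binding nor interferon signalling was measured, and a shared cause was not tested.

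Of 28 tested GD2 and surface immunotherapy genes, 7 were higher in NB1643 and 15 in NB1691. ST8SIA1, which makes the GD3 that B4GALNT1 turns to GD2, was at 20.18 and 17.80 CPM in NB1643 and at 4.432 and 4.628 CPM in NB1691 (log2 fold change 2.07), opposite to B4GALNT1. GPC2, a glypican of developing neurons, was at 130.8 and 118.5 CPM against 15.65 and 16.04 CPM, and the adhesion molecule L1CAM was at 162.3 and 145.7 CPM against 1625 and 1642 CPM. CD276 (B7-H3) was at 69.75 and 64.70 CPM against 118.8 and 125 CPM, under 2-fold. The natural killer ligand MICA was at 0.01364 and 0 CPM in NB1643 and at 44.95 and 46.08 CPM in NB1691, at least 791-fold higher.

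HOX genes, which set position along the body axis, differed by cluster. Of 37 tested, 9 were higher in NB1643 and 24 in NB1691 (median −8.42, or −5.35 at the bound). The HOXA and HOXB clusters were near 0 in NB1643: HOXA3 was at 0 in both libraries and at 68.05 and 70.28 CPM in NB1691, and HOXB3 at 0 against 26.82 and 24.27 CPM. The HOXD cluster went the other way for HOXD9, at 45.94 and 45.90 CPM in NB1643 against 7.520 and 8.199 CPM in NB1691 (log2 fold change 2.54). HOXC10 of the HOXC cluster was at 1.637 and 1.343 CPM against 27.30 and 27.88 CPM. Along the genome, the stretch of 22 neighbouring tested genes from CBX3 to HIBADH around HOXA, with a median of −10.85 (−6.73 at the bound), and the stretch of 22 from COPZ2 to SUMO2P17 around HOXB (−8.99, or −5.09 at the bound) had the lowest fitted medians among stretches of at least 10 genes, an order that rests on fitted values of floor genes. A further stretch on chromosome 4 from ANKRD17 to RCHY1 held the chemokine genes CXCL1, CXCL3, CXCL5, CXCL6 and CXCL8, each at 0 in NB1643, with CXCL8 at 154.2 and 144.8 CPM in NB1691.

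Cancer-testis genes, silent in most adult tissues outside the germ line, were on in NB1691 for the MAGEA cluster. Of 37 listed, 35 were at the floor in NB1643 and 22 in NB1691. Only 12 passed the filter on low counts, most of them through the NB1691 libraries alone, so the direction of their calls follows from the filter and is not counted here. MAGEA3 was at 0.01364 and 0 CPM in NB1643 and at 172.2 and 175.7 CPM in NB1691, at least 3020-fold higher, and MAGEA10 was at 0 against 80.52 and 80.74 CPM. These paralogs share sequence, so reads may be split between them. PRAME, abundant in both lines, had mean levels of 148 CPM in NB1643 and 296 CPM in NB1691. Clustered protocadherins, adhesion proteins with a choice of isoform per cell, had 10 of 51 tested members higher in NB1643 and 31 in NB1691. PCDHB4 was at 33.71 and 38.38 CPM against 1.6 and 1.759 CPM, and PCDHB6 at 0.1228 and 0.07672 CPM against 20.21 and 20.03 CPM.

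Of 31 tested imprinted genes, expressed from 1 parental copy, 12 were higher in each line. The DLK1 and MEG3 cluster was higher in NB1643, with MEG3 at 597.9 and 558 CPM against 48.07 and 44.18 CPM (log2 fold change 3.65) and DLK1 at 79.15 and 75.80 CPM against 15.14 and 17.07 CPM. H19 was at 17.89 and 16.94 CPM in NB1643 and at 0.112 and 0.1587 CPM in NB1691, while its neighbour IGF2 was higher in NB1691, as given above. PLAGL1, a zinc-finger factor, was at 0.7368 and 0.5946 CPM against 109.5 and 106.7 CPM. Of 53 tested axon guidance genes, 18 were higher in NB1643, such as UNC5C (300.3 and 273.4 against 6.336 and 6.440 CPM), and 23 in NB1691, such as NTN4 (0 against 59.94 and 62.15 CPM). In the Notch list 9 of 25 were higher in each line, with NOTCH2 at 23.44 and 18.24 CPM against 321.5 and 336.9 CPM and the ligand JAG2 at 46.24 and 37.27 CPM against 0.304 and 0.4099 CPM.

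Few genes of the chromatin modifiers that the study is about differed by 2-fold. Of 15 tested PRC2 and H3K27 demethylase genes, 2 were higher in NB1643 and 1 in NB1691, below the background shares in both directions, and the median was −0.03. KDM6B, the H3K27 demethylase the study targets, was at 61.99 and 50.16 CPM in NB1643 and at 40.08 and 40.37 CPM in NB1691, 1.39-fold higher (log2 fold change 0.48, SE 0.080, adjusted p = 2.08e-05). KDM6A, its paralogue on the X chromosome, was at 19.55 and 20.87 CPM against 51.31 and 51.32 CPM (log2 fold change −1.35, near the median of −1.03 of its arm, Xp). EZH2, the methyltransferase that opposes them, was at 59.69 and 62.93 CPM against 32.88 and 33.42 CPM (log2 fold change 0.89). The PRC2 accessory genes EPOP and MTF2 were the members higher in NB1643, with log2 fold changes of 1.45 and 1.18.

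Among oncofetal genes, 3 of 9 tested were higher in NB1643 and 2 in NB1691. LIN28B, which blocks let-7 maturation, was at 42.68 and 40.85 CPM in NB1643 and at 11.68 and 12.72 CPM in NB1691 (log2 fold change 1.77), whereas IGF2BP2, an RNA-binding protein, was at 0.1364 and 0.01918 CPM against 224.3 and 235.9 CPM (log2 fold change −11.33). TERT, the catalytic subunit of telomerase, was at 6.945 and 4.949 CPM against 0.272 and 0.1719 CPM (log2 fold change 4.77, SE 0.25, adjusted p = 1.33e-12). ATRX, a gene lost in tumours with alternative lengthening of telomeres, was at 82.19 and 78.43 CPM against 212.9 and 223.1 CPM. Its log2 fold change of −1.44 lay near the median of its arm, Xq (−1.09). Of 15 tested telomere genes 3 were higher in NB1643 and 2 in NB1691. In the BCL2 family 5 of 19 were higher in NB1643 and 7 in NB1691, not far from the 21.3% and 30.5% of all tested genes. BCL2, the anti-apoptotic member that venetoclax binds, was at 169.2 and 163.9 CPM against 12.72 and 13.53 CPM (log2 fold change 3.66). Of 22 serine, one-carbon and glutamine genes, 6 were higher in NB1643 and 5 in NB1691, also not far from those background shares. The cystine transporter SLC7A11 was at 6.331 and 6.579 CPM against 46.16 and 46.55 CPM. Retinoid genes had 2 of 18 higher in NB1643 and 8 in NB1691, led by the retinol receptor STRA6 at 0.996 and 1.323 CPM against 132.4 and 126.8 CPM. The Schwann cell and neural crest progenitor list had 2 of 14 higher in NB1643, NES at 476.5 and 386.4 CPM against 22.51 and 23.51 CPM among them, and 9 in NB1691, with the neurotrophin receptor NGFR at 0.2183 and 0.07672 CPM against 145.4 and 149.2 CPM.

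The genes with the largest fitted log2 fold changes, 12 in each direction at a mean of at least 5 CPM, were each at the floor in a line, so their order is not an order of measured folds. Those higher in NB1691 were HAPLN1, MXRA5, P3H2, FLG, CYP24A1, HMGA2, NNMT, KIRREL, ADAMTS12, CLDN1, CAV1 and CTGF. HAPLN1, which links hyaluronan and proteoglycans of the matrix, was at 0 in both NB1643 libraries and at 1752 and 1771 CPM in NB1691, at least 30600-fold higher. MXRA5 and P3H2, of matrix and collagen modification, reached 566.3 to 576.6 and 554.1 to 564.2 CPM from 0. By bound or measured fold, CPM (at least 51300-fold), COL1A1 (23400-fold) and AXL (20700-fold) exceeded most of these genes. The fold of AXL rests on 4 and 0 counts in the NB1643 libraries, just over the floor, and is therefore imprecise. Those higher in NB1643 were ZIC5, CRYGD, KCNT1, COL23A1, LDHAL6A, CYTL1, DACH2, GRIN1, EGFL7, ZIC2, CASC9 and GRM7. ZIC2, a zinc-finger factor of neural development, was at 38.09 and 32.05 CPM in NB1643 and at 0.016 and 0.02645 CPM in NB1691, at least 731-fold higher. GRIN1, an NMDA receptor subunit, was at 19.66 and 17.59 CPM against 0 and 0.01322 CPM. The highest library value among the NB1643 genes was 38.09 CPM, against 2120 CPM for CTGF among the NB1691 genes.

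Chromosome arms had medians from −1.09 (Xq, 425 genes) to 0.44 (13q, 366 genes). The arms with the lowest medians after Xq were Xp (−1.03), 18p (−0.87), 12q (−0.74), 20q (−0.69) and 1p (−0.67), and the highest after 13q were 16p (0.41), 2p (0.38) and 3p (0.35). The median over all genes was −0.128, and library totals alone raised it to 0.28, so an arm's sign near zero depends on the scaling. The palbociclib libraries gave −1.0 for Xq, −0.81 for 12q and 0.28 for 13q. Runs of at least 5 neighbouring genes with medians of at least 1.5 in a direction were so common (272 higher in NB1643 and 672 in NB1691, holding 7306 of 17886 placed genes) that only the 5 strongest each way among those of at least 10 genes were looked at, a choice made after their number was seen. In NB1643 these included 12 genes around MEG3 from WARS to DYNC1H1 (median 2.85) and 17 around TERT from EXOC3 to SDHAP3 (2.48).

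**Figure D5:**
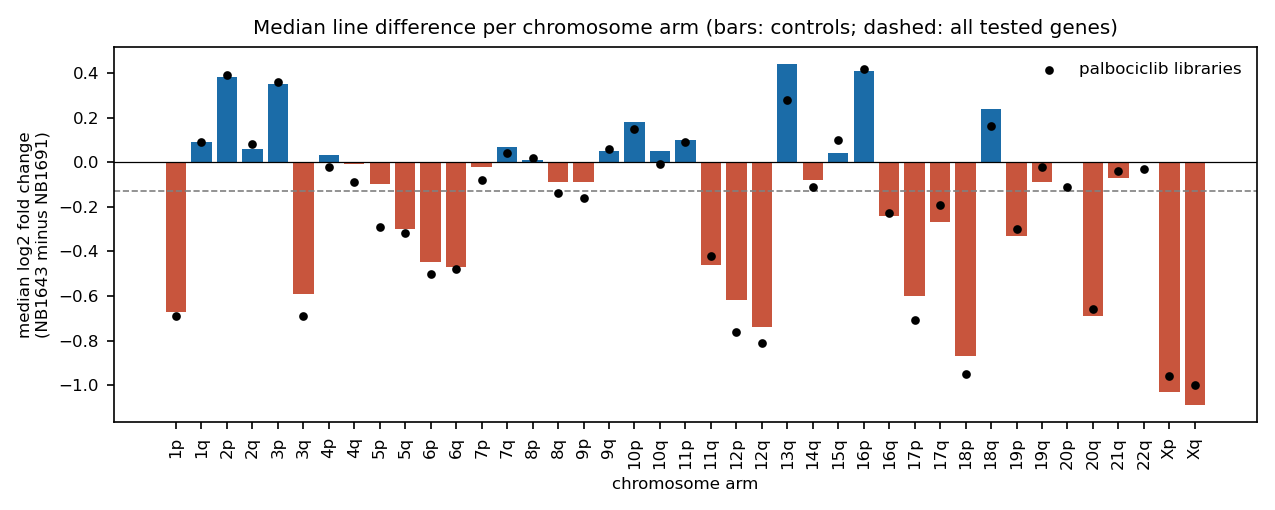
Median log2 fold change (NB1643 minus NB1691) of tested genes on each chromosome arm with at least 20 genes. Bars are the control libraries, black points the palbociclib libraries, and the dashed line the median of all tested genes at −0.128. Xq, Xp, 18p and 12q lie lowest, and 13q, 16p, 2p and 3p highest.

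The palbociclib libraries of the same lines, not used in the control contrast, gave 17610 genes called (79.6%), 4471 higher in NB1643 and 6814 higher in NB1691 at 2-fold (20.2% and 30.8%). Of the 4712 genes higher in NB1643 controls, 3769 were called at 2-fold in the same direction and 9 in the opposite direction with palbociclib. Of the 6753 higher in NB1691 controls, 6079 kept the direction at 2-fold and 5 were called in the opposite one. The line difference itself changed with palbociclib for 4875 genes (22%) at an adjusted p under 0.05. With palbociclib the log2 fold change was 4.40 for MYCN, −4.96 for DDX1, −4.90 for CDK4 and −6.36 for MDM2.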

How the data were processed

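Total RNA of neuroblastoma cells was sequenced as paired ends. The authors aligned reads to GRCh37 (STAR 2.5.3a, per the labels' processing notes) and counted them per gene with htseq-count. The deposited counts are whole numbers, not normalized. The methods name a mouse GENCODE annotation, while the symbols are human. Summary lines (5.402% to 7.565% of reads on no gene) were left out. Of 50778 listed symbols, 29388 were placed on GENCODE v44lift37 directly and 1288 by an older symbol. Differential expression was tested in R 4.3.3 with edgeR 4.0.16: TMM, filterByExpr, 1 group per line and condition over 16 libraries (8 residual degrees of freedom), the quasi-likelihood test of each contrast, and p-values adjusted by Benjamini-Hochberg over 22133 genes. The authors used voom and limma, kept here as an alternative. CPM use TMM-scaled library sizes. Positive values are higher in NB1643. Y-linked genes and XIST are not reported. The common coefficient of variation was 0.0523. Replicates of a line were separate libraries (chi-square per degree of freedom 24.3 for NB1643 and 2.77 for NB1691). Alternatives were DESeq2 1.42.0, limma-voom 3.58.1, other scalings and filters, fewer libraries, a replicate block and leaving out each library. The scripts were tested on simulated data. The comparison, its members and its 30 gene lists, 2 of them the S phase and G2/M lists of Seurat 5.3.0, were chosen with earlier results of these data known. Named were the 12 most extreme genes each way, up to 6 2-fold calls per list, a list of genes set by name (such as MYCN, MDM2, TH and KDM6B), and up to 6 genes in each stretch of neighbours looked at. Genes outside this rule, such as FN1, OS9, UNC5C and GFRA1, were chosen after their values were seen. Some genes are not reported here.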

Additional observations from a re-analysis of the deposited data

Results flagged for a closer look

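A gene was singled out where the difference between the lines itself changed with palbociclib (test of the interaction, adjusted p under 0.05, as for 22% of all tested genes), among the genes fixed by name and those with the most extreme differences that were not at the floor. On the log2 scale, the line difference with palbociclib minus that in controls was −0.80 for MYCN, 0.23 for DDX1, −2.26 for MYC, 0.43 for MDM2, 0.77 for CDKN1A, −0.33 for CDK6, −0.74 for CDKN2A, −0.91 for TH, −0.26 for HAND2 and 1.80 for DBH. DBH had a mean of 13 CPM in NB1643 and 13.7 CPM in NB1691 controls, and of 54.5 and 16.4 CPM with palbociclib. MYC was at 0.0691 CPM in NB1643 with palbociclib, near the floor. MYCN in NB1643 had a mean of 3170 CPM in controls and 2200 CPM with palbociclib.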

How the results depend on the processing

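The count of genes differing between the lines ranged from 13962 to 19301 over the alternatives without left-out libraries, against 17868. Of the counts by direction, only that of genes at least 2-fold higher in NB1691 moved by over 1.5 times, to 4411 against 6753 under a filter of at least 1 CPM in 2 of the 4 control libraries, where 15728 genes were tested. Leaving out each control library in turn gave 17012 to 17857 genes, 4495 to 5202 higher in NB1643 at 2-fold and 6611 to 6853 higher in NB1691. The same-numbered NB1643 and NB1691 libraries did not deviate together (correlation −0.00357), so the numbers pair nothing, and the replicate block gave 17769 genes. DBH came to 0.12 with upper-quartile scaling and 0.34 with library totals (adjusted p = 0.277 and 0.00375), which moved the median of all genes from −0.128 to 0.053 and 0.28, and ranged from −0.19 to 0.04 without a library, above 0 in 3 of 4 cases (0.01, 0.03 and 0.04), and the cause was not tested. Without the NB1643 library of replicate 1 HBB and LAMP5-AS1, an antisense transcript beside LAMP5, came to 0.00, and their ranges were 0.00 to 12.76 and 0.00 to 6.02 over the left-out libraries, since that library holds all their NB1643 counts. HBB came to 6.29 (adjusted p = 0.212) with limma-voom. Over the named genes, 3543 values kept their direction and call, 4 lost the call, the 5 of DBH given above changed sign and the 2 of HBB and LAMP5-AS1 came to 0. Arm medians moved by more than their spread over library pairs in 236 values and did not in 133. Each result rests on 2 libraries a side, and genes with at most 3 counts in every library of a line were at the floor of this depth.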

Other observations

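Further stretches of neighbouring genes stood out by position. On the X chromosome, the 21 tested genes from GPR50-AS1 to PNMA3 had a median log2 fold change of −7.62 (−4.24 with floor genes at their bound), and beside the MAGEA genes CSAG1, another cancer-testis gene, was at 0 in NB1643 and at 57.14 and 61.04 CPM in NB1691. On chromosome 21, the 10 tested genes from DSCR3 to RPL23AP12 had a median of −7.47 (−3.39 at the bound). There ERG, an ETS family transcription factor, was at 0 and 0.03836 CPM against 4.032 and 4.126 CPM, and the potassium channel gene KCNJ6 was at 0.02729 and 0 CPM against 3.04 and 3.24 CPM. In the other direction, 10 genes on chromosome 20 from BMP2 to SNAP25 had a median of 2.67 (1.41 at the bound). SNAP25, a protein of synaptic vesicle fusion, was at 161.5 and 181.3 CPM in NB1643 and at 16.93 and 17.6 CPM in NB1691 (log2 fold change 3.31), while BMP2, a secreted morphogen in the same stretch, was at 0.5185 and 0.2493 CPM against 3.776 and 4.364 CPM. NOTCH1, in a stretch of 12 genes on chromosome 9 with a median of 3.37, was at 2.879 and 1.803 CPM against 0.176 and 0.1455 CPM.

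HBB had a mean of 1.86 CPM in the NB1691 palbociclib libraries and 0.468 CPM in those of NB1643, against 0 in the NB1691 and CHLA controls.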
